A study of Mus musculus with 8 samples.

Results

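The genes of the mouse mitochondrial genome were followed in RNA-seq libraries of hippocampus and prefrontal cortex (PFC). They were chosen by name alone, as every name in the table of normalized read counts that starts with mt-. This rule found 37 of 34620 gene names, and all 37 lie on the mitochondrial chromosome of mouse build NCBIM37 in the GENCODE M1 annotation. They comprise 13 mRNAs, 2 ribosomal RNAs (rRNAs) and 22 transfer RNAs (tRNAs). A read was counted for 30 of them, and 29 reached the mean of 1 normalized count that the comparison of the regions required.

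There were 4 hippocampus and 4 PFC libraries, from untreated adult male C57Bl6 mice that the labels give as 7 to 9 weeks old, while the study's methods give a slightly different age range. Each library held tissue pooled from 2 mice. The labels do not say which hippocampus and PFC libraries came from the same animals. Total RNA was depleted of ribosomal RNA, primed with random hexamers and poly A primers, and amplified by SPIA, an isothermal linear amplification of cDNA. A normalized count is the number of reads assigned to a gene name divided by a library factor for depth. Hippocampus replicate 2 stood apart from the other libraries in many members, so results that rest on it are given with and without it. Without it 11.3% of all genes tested passed the test between the regions, against 5.68% with it. The hippocampus libraries held 3164964 to 16636500 reads in genes and the PFC libraries held 4689377 to 10625194.

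Mitochondrial DNA is a small circle that is transcribed from both strands into long precursors by a nuclear-encoded polymerase. The tRNAs lie between most of the longer genes, and cutting at the tRNA ends releases the mRNAs and rRNAs. The mRNAs encode subunits of complexes I, III and IV of the respiratory chain and of the ATP synthase (complex V), and the rRNAs and tRNAs serve the ribosomes inside the organelle that translate them. In brain these complexes supply most of the ATP that neurons use.

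The 5 tRNAs with the most reads are shown first, because their levels in 1 library stood far from those in the others. They were read 5′ to 3′ as the RNA strand from NCBIM37, with the anticodon in capitals. The tRNA for proline lies at chrM:15356-15422 on the minus strand, the tRNA for methionine at chrM:3845-3913 on the plus strand, and the tRNA for glutamine at chrM:3772-3842 on the minus strand. The leucine tRNAs lie at chrM:2676-2750 (mt-Tl1) and chrM:11671-11741 (mt-Tl2), both on the plus strand, and differ in their anticodons.
mt-Tp: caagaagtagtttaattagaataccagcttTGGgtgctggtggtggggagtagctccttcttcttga
mt-Tm: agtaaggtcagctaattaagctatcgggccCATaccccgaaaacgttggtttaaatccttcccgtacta
mt-Tl1: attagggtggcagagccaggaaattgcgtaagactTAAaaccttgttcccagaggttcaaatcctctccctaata
mt-Tq: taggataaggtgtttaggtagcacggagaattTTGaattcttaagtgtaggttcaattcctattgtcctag
mt-Tl2: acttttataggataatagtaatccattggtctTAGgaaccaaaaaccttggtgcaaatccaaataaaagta

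Part of the mitochondrial genome also lies in the nuclear genome, and this bears on which members can be counted. The longest copy lies at chr1:24618374-24623027 on the minus strand and covers chrM:6390-11042, from the end of mt-Co1 into mt-Nd4. Of its 4654 aligned positions 4651 are identical. The start of mt-Nd3, a subunit of complex I, holds 1 of the 3 differences, at position 9461 of chrM. It is shown in both versions at chrM:9431-9491 (plus strand) and chr1:24619926-24619986 (minus strand), with the differing base in capitals, because it is what sets the few distinct windows of mt-Nd3 apart from the copy.
mitochondrial, mt-Nd3: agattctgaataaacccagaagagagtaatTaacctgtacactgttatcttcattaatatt
chromosome 1 copy, mt-Nd3: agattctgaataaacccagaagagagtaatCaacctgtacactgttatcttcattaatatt

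Of the 16225 windows of 75 bases, the read length, along the mitochondrial chromosome, 5218 had an exact copy in the nuclear genome. The 13 mRNAs fell into 2 sets by this measure. In mt-Nd1, mt-Nd6 and mt-Cytb 100% of the windows inside the gene had no exact nuclear copy, and the share was 98.3% in mt-Nd5, 94.3% in mt-Nd2, 60.2% in mt-Co1 and 38.5% in mt-Nd4. In mt-Co2, mt-Atp8, mt-Atp6, mt-Co3 and mt-Nd4l no window was without one, and mt-Nd3 had 3 such windows of 274. TopHat2 allowed 2 mismatches; with windows that match the nuclear genome within 2 mismatches also left out, the share was 17.5% in mt-Co1, 38.2% in mt-Nd4 and 79.1 to 100% in the other 5 of the first set, and 0% in mt-Nd3. The 7 mRNAs of the first set averaged 1113 to 46063 normalized counts over the 8 libraries and held 1024569 of the 1025493 mRNA reads. The 6 of the second set averaged 1.37 to 42.5 and held 924 reads in all. HTSeq, which counted the reads, by default leaves out a read reported at several places. The setting used is not given in the sources used here, and its part in the low values of the 6 mRNAs was not tested.

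**Figure D1:**
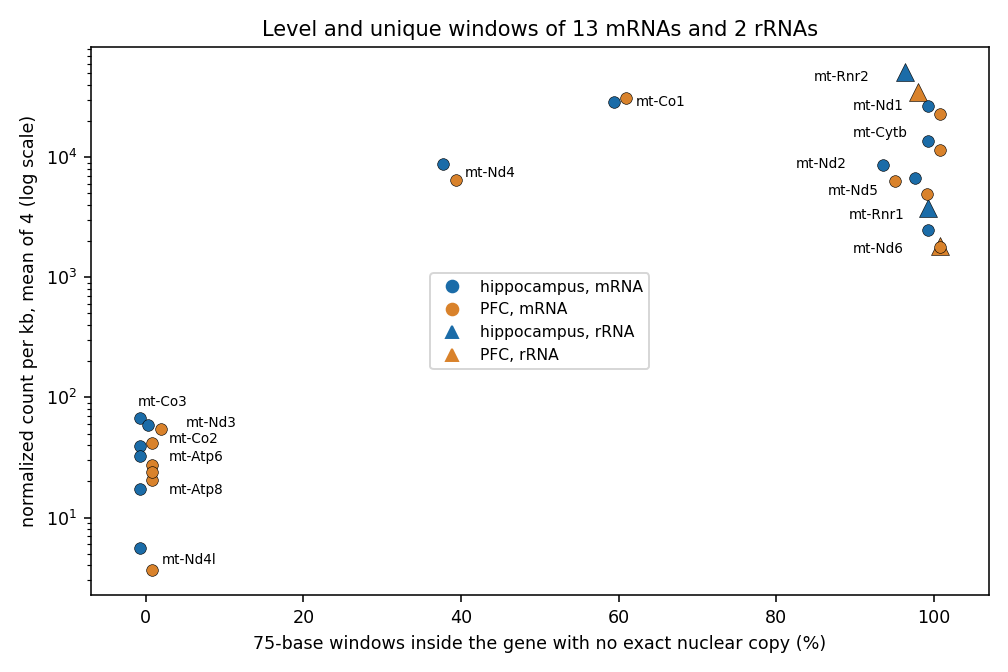
Level of 13 mRNAs (circles) and 2 rRNAs (triangles) as the mean normalized count per kb of 4 hippocampus (blue) and 4 PFC (orange) libraries, log scale, against the percentage of 75-base windows inside the gene with no exact nuclear copy; the points of a gene are set slightly apart sideways. The 6 mRNAs with 0 to 3 such windows lie at the bottom left, and every gene with 38.5% or more lies above all 6.

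The member with the most reads was the large rRNA, with 652177 over the 8 libraries, while the small rRNA had 28453. The large rRNA mt-Rnr2, the backbone of the large mitochondrial ribosomal subunit, had 60022, 69658, 119725 and 72693 normalized counts in the hippocampus libraries, against 64075, 56359, 66963 and 32493 in the PFC libraries. The small rRNA mt-Rnr1 had 1843, 3676, 7260 and 1686 in hippocampus, against 2593, 1449, 1848 and 1136 in PFC. For both rRNAs the highest library was hippocampus replicate 3 and the lowest was PFC replicate 4, and the other libraries of the regions overlapped. Per kb, mt-Rnr2 was above mt-Rnr1 in 8 of 8 libraries, with a mean of 42825 ± 15439 (SD, n = 8) against 2813 ± 2104. The ratio of the counts of mt-Rnr2 to those of mt-Rnr1 was 32.6, 19.0, 16.5 and 43.1 in hippocampus and 24.7, 38.9, 36.2 and 28.6 in PFC. Because ribosomal RNA was removed before priming, the rRNA levels are those left after depletion.

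Complex I, which takes electrons from NADH, has 7 mitochondrially encoded subunits, of which mt-Nd1, mt-Nd2, mt-Nd4, mt-Nd5 and mt-Nd6 had many reads. The most abundant was mt-Nd1, with 20258, 27288, 27092 and 26534 normalized counts in hippocampus, against 23970, 20934, 26539 and 15603 in PFC. The level of mt-Nd2 was 5245, 15783, 7416 and 7538 in hippocampus, against 9829, 6362, 6997 and 3315 in PFC. Hippocampus replicate 2 stood above the other 7 libraries for mt-Nd2, and PFC replicate 1 came next. The same order of these libraries at the top held for mt-Nd5, with 7924, 19842, 11032 and 10158 in hippocampus, against 12100, 8546, 10259 and 5148 in PFC. It held again for mt-Nd6, the only mRNA on the minus strand, with 703, 2516, 966 and 989 in hippocampus, against 1426, 852, 960 and 489 in PFC. The reads were counted without regard to strand, so reads from mt-Nd6 and from RNA antisense to it cannot be told apart. The level of mt-Nd4 was 9231, 13394, 13418 and 12170 in hippocampus, against 10237, 9203, 9954 and 6137 in PFC. For mt-Nd4, 3 of the 4 hippocampus libraries lay above all 4 PFC libraries, and hippocampus replicate 1 lay among them. The other complex I mRNAs were near the floor: mt-Nd3 ranged over 11.3 to 29.8 in hippocampus and 8.07 to 24.6 in PFC, and mt-Nd4l over 0.433 to 2.89 and 0 to 1.54. The mRNA of mt-Nd4l overlaps that of mt-Nd4, so reads in the shared bases are uncertain.

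Complex III has a single mitochondrially encoded subunit, cytochrome b. Its mRNA mt-Cytb had 12078, 16836, 18445 and 15485 normalized counts in hippocampus, against 14953, 12781, 14926 and 9821 in PFC, and the regions overlapped. Of the complex IV (cytochrome c oxidase) subunits only mt-Co1 was well counted, with 44675, 27064, 46483 and 59035 in hippocampus, against 48510, 56863, 46241 and 39631 in PFC. The lowest library for mt-Co1 was hippocampus replicate 2, which was the highest library for mt-Nd1, mt-Nd2, mt-Nd5 and mt-Nd6. The other subunits of complex IV had 9.09 to 36.2 (mt-Co2) and 25.1 to 83.2 (mt-Co3) in hippocampus, and 16.1 to 21.3 and 27.6 to 37.2 in PFC. The mRNAs of complex V, mt-Atp6 and mt-Atp8, which overlap each other, had 4.76 to 41.6 and 1.05 to 5.77 in hippocampus, and 13.4 to 21.5 and 1.34 to 6.15 in PFC.

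**Figure D2:**
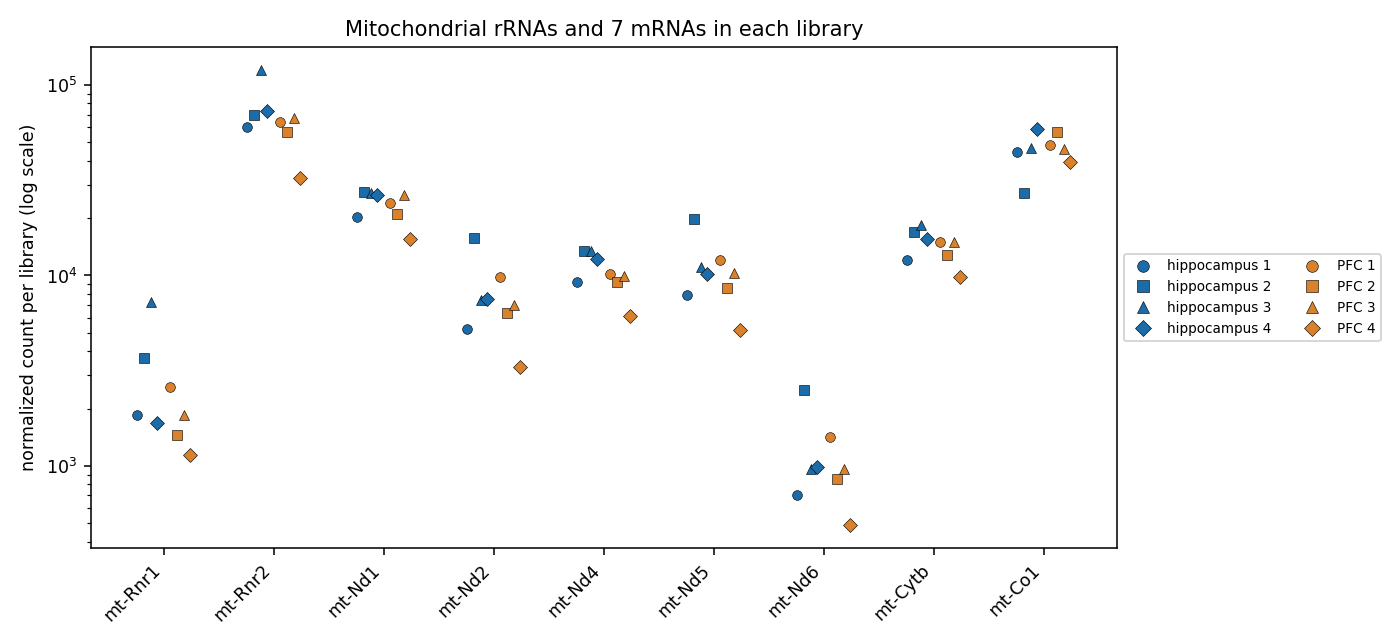
Normalized count (log scale) of the 2 rRNAs and the 7 mRNAs with many reads in each of 4 hippocampus (blue, left) and 4 PFC (orange, right) libraries; the marker shape gives the replicate number. Hippocampus replicate 2 (blue square) is above the other libraries for mt-Nd2, mt-Nd5 and mt-Nd6 and below them for mt-Co1, and the regions overlap for all 9 genes.

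Levels of different members were compared only per length. Over the 8 libraries the mean normalized count per kb was 29814 ± 6451 for mt-Co1, 24584 ± 4422 for mt-Nd1, 12601 ± 2406 for mt-Cytb, 7596 ± 1785 for mt-Nd4, 7525 ± 3594 for mt-Nd2, 5826 ± 2356 for mt-Nd5 and 2144 ± 1208 for mt-Nd6 (SD, n = 8 each). In this order mt-Co1 was above mt-Nd1 in 7 of 8 libraries and mt-Nd4 was above mt-Nd2 in 6 of 8, while each other neighbour was above the next in 8 of 8. The means of mt-Nd4 and mt-Nd2 per kb differed by less than either SD, and their difference within libraries was not tested. The libraries with mt-Nd2 above mt-Nd4 were hippocampus replicate 2 and PFC replicate 1. Counted per 1000 start positions without an exact nuclear copy, mt-Nd4 had 20852 and came before mt-Cytb, which had 13473, in 8 of 8 libraries. The place of mt-Nd4 in the order therefore depends on whether the copied stretch is counted as part of its length.

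All the reads of the 7 well counted mRNAs were also divided among them within each library. Complex I mRNAs held 43.3%, 64.2%, 48.0% and 43.5% of these reads in hippocampus, against 47.6%, 39.7%, 47.2% and 38.3% in PFC. The share of mt-Co1 was 44.6%, 22.1%, 37.2% and 44.8% in hippocampus, against 40.1%, 49.2%, 39.9% and 49.5% in PFC. Hippocampus replicate 2 was thus the library with the most complex I and the least mt-Co1. The share of mt-Nd4 was 9.22%, 10.9%, 10.7% and 9.23% in hippocampus, against 8.46%, 7.96%, 8.59% and 7.66% in PFC. Of the 7 shares that of mt-Nd4 was the one in which the regions did not overlap; it was singled out after its values were seen and has no test, and it stands beside 11.8% of the 19789 genes tested whose regions did not overlap in normalized counts.

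Mitochondrial genes together took 2.25%, 2.71%, 3.40% and 2.83% of the reads in hippocampus, against 2.61%, 2.41%, 2.56% and 1.59% in PFC. The mRNAs took 1.39%, 1.69%, 1.69% and 1.81% in hippocampus, against 1.68%, 1.60%, 1.60% and 1.12% in PFC, or 1.64% ± 0.178 against 1.502% ± 0.256 (SD, n = 4 each). The rRNAs took 0.859%, 1.01%, 1.71% and 1.02% in hippocampus, against 0.925%, 0.802%, 0.951% and 0.471% in PFC, or 1.15% ± 0.383 against 0.787% ± 0.221. None of these shares separated the regions. The highest total was in hippocampus replicate 3, where rRNAs made up 50.4% of the mitochondrial reads, and the lowest was in PFC replicate 4, where they made up 29.5%. The 95% Wilson interval of a library's share was at most 0.0183 percentage points to each side; such intervals cover counting error only, since amplified reads are not independent molecules. In pooled tissue a smaller number of cells of a type and less mitochondrial RNA per cell cannot be told apart.

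**Figure D3:**
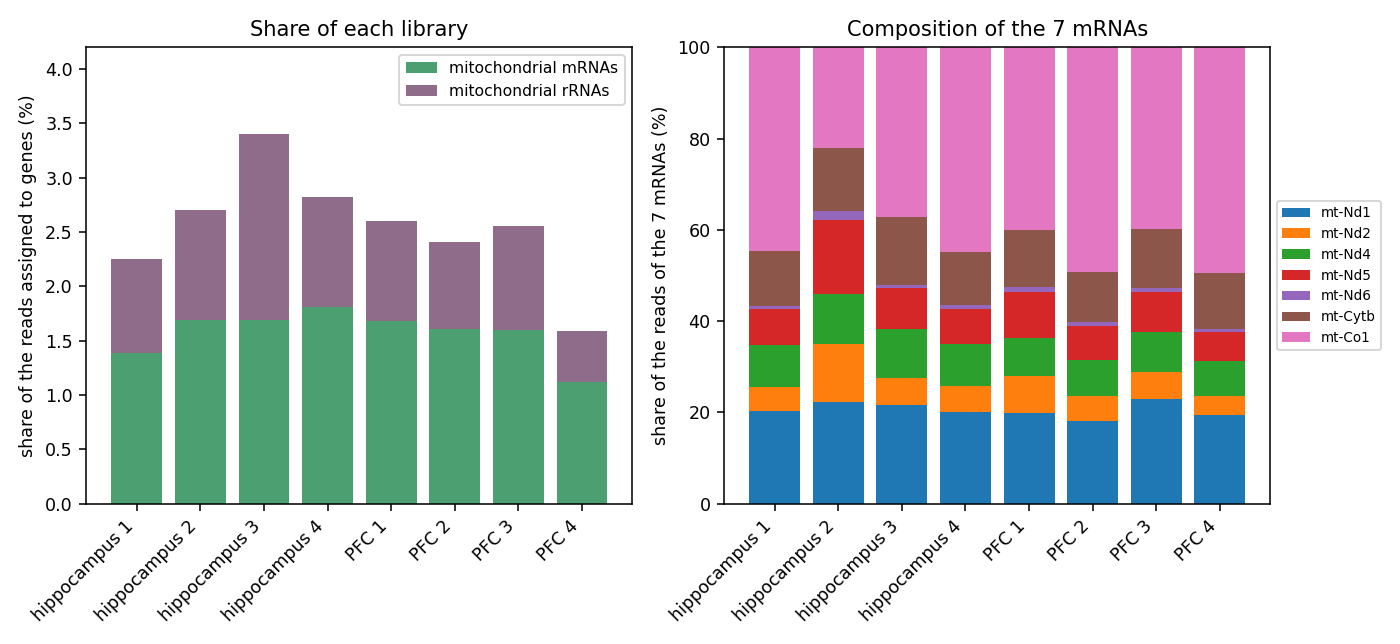
Left, share (%) of the reads in genes taken by mitochondrial mRNAs and rRNAs in each library, hippocampus 1 to 4 and then PFC 1 to 4; right, composition (%) of the reads of 7 mRNAs in the same libraries. The total runs between 2.25% and 3.40% in hippocampus and between 1.59% and 2.61% in PFC, and hippocampus 2 has the smallest mt-Co1 share (22.1%).

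The tRNAs held 1516 reads over all libraries, and 15 of the 22 had a read. The 7 listed at 0 in every library were the tRNAs for aspartate, glycine, histidine, lysine, tryptophan and tyrosine and 1 of the serine tRNAs (mt-Ts1); a count of 0 allows up to 3 reads in a library, or 1.30 to 6.93 normalized counts. Except for mt-Tl1, which is 75 bases long, the tRNAs are shorter than an untrimmed read, so a whole read over them reaches beyond the gene. Windows of 75 bases that touch no other mitochondrial gene numbered 67 in mt-Tp, 31 in mt-Tn, 26 in mt-Tc and 1 in mt-Tl1. The other tRNAs had 0 such windows. How reads that touch a neighbouring gene were counted is not given, so the tRNA counts are uncertain as levels. In 9 tRNAs every window that touches the gene was without an exact nuclear copy, and all 9 had reads (14 to 447). In 3 (mt-Ts1, mt-Td and mt-Tk) no window was, and none had a read. In the other 10 part of the windows were, and 6 of those had reads (up to 80 in mt-Tc). One of these, mt-Tr, holds a further difference from the chromosome 1 copy, a base of the copy that chrM lacks at position 9820, and had 16 reads.

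The tRNA for proline, mt-Tp, had 18.2, 169, 45.2 and 27.7 normalized counts in hippocampus, against 63.0, 51.5, 48.7 and 10.1 in PFC. The tRNA for methionine, mt-Tm, had 21.2, 138, 30.5 and 16.2 in hippocampus, against 66.1, 22.6, 25.8 and 15.5 in PFC. In both, hippocampus replicate 2 was the highest library and the other 3 hippocampus libraries lay within the range of PFC. The leucine tRNA mt-Tl1, which lies between mt-Rnr2 and mt-Nd1, had 9.95, 86.6, 13.1 and 9.24 in hippocampus, against 38.4, 10.04, 21.5 and 8.74 in PFC. The other leucine tRNA, mt-Tl2, had 1.73, 65.4, 1.58 and 4.62 in hippocampus, against 32.3, 6.28, 5.73 and 0.672 in PFC. The tRNA for glutamine, mt-Tq, had 4.33, 64.5, 4.73 and 2.31 in hippocampus, against 19.98, 10.04, 18.6 and 1.34 in PFC. For each of these 5 tRNAs PFC replicate 1 was second to hippocampus replicate 2. Over all detected tRNAs, hippocampus replicate 2 was the highest library for 14 of 15, the exception being mt-Tn, which had 4 reads in all.

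The summed tRNA level was 67.1, 658, 105 and 83.2 normalized counts in hippocampus, against 274, 127, 145 and 41.0 in PFC. The tRNAs took 0.00907% of the reads of hippocampus replicate 2 (684 reads, 95% Wilson interval 0.00841 to 0.00977%) and 0.00380% of those of PFC replicate 1 (178 reads, 0.00328 to 0.00440%). In the other 6 libraries they took 0.000574 to 0.00200%. Set against the mitochondrial mRNAs, there were 5.36 tRNA reads per 1000 mRNA reads in hippocampus replicate 2, 2.26 in PFC replicate 1 and 0.511 to 1.25 in the other libraries. Short nuclear RNAs did not all have the same order of libraries. The 122 genes named Snord, Snora or Scarna, for small nucleolar and Cajal body RNAs, summed to 1259 normalized counts in hippocampus replicate 2, to 635 in PFC replicate 1 and to 361 to 424 in the other libraries. The 667 genes named Mir summed to 3084 in hippocampus replicate 2, to 14544 in hippocampus replicate 3 and to 2197 to 4775 in the other libraries, and all 972 short RNA names summed to 4360 in hippocampus replicate 2 and to 14950 in hippocampus replicate 3. Most of the Mir sum was Mir5102, with 12187 in hippocampus replicate 3 and 2120 in hippocampus replicate 2, and Mir5105, with 1736 and 216. The order of the libraries in the Mir sum and in the 972-name sum therefore rests largely on these genes. The part of the short RNAs in the tRNA result was not tested.

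**Figure D4:**
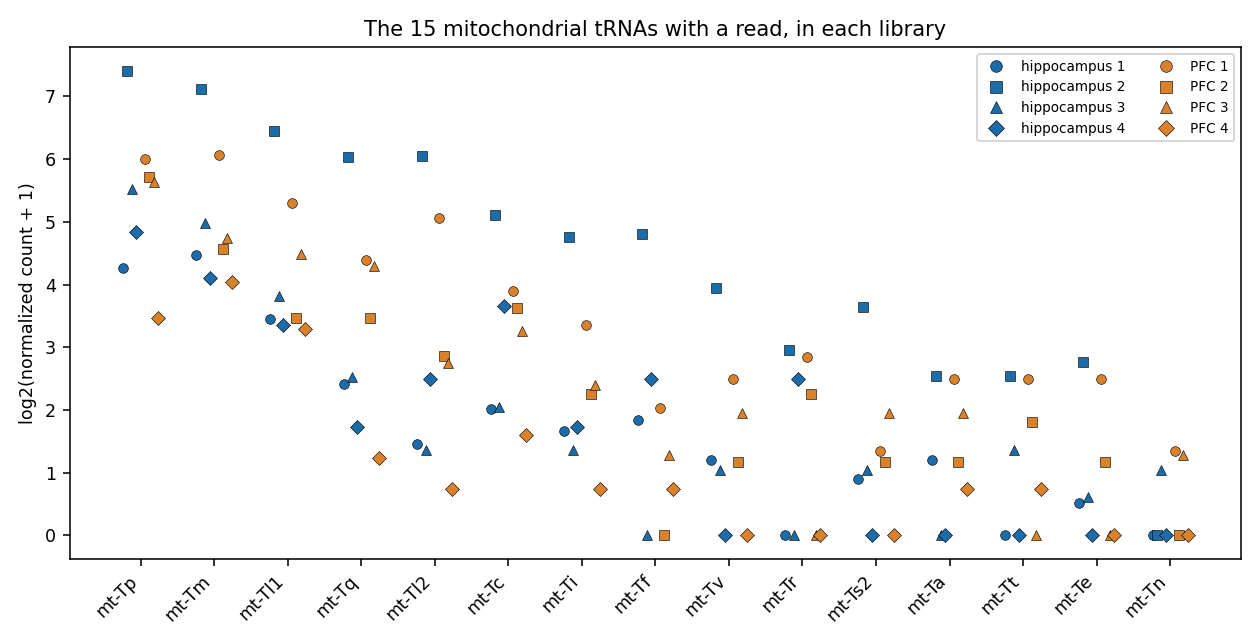
Level of the 15 mitochondrial tRNAs with a read, as log2(normalized count + 1), in 4 hippocampus (blue, left) and 4 PFC (orange, right) libraries, ordered by their mean; the marker shape gives the replicate number. Hippocampus replicate 2 (blue square) is the highest point for 14 of the 15, and PFC replicate 1 (orange circle) is next for the first 5.

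The difference between the regions was tested by limma, fitted to log2(normalized count + 1) of 19789 genes, with p-values adjusted by the Benjamini-Hochberg method over all of them; a positive log2 fold change means a higher level in hippocampus. None of the 29 members tested passed an adjusted p of 0.05, against 5.68% of all genes tested. The count was also 0 with edgeR, which called 5.91% of all genes, and with DESeq2, which called 7.39%. At an unadjusted p of 0.05 limma counted 3 of 29 members (mt-Nd4, mt-Rnr1 and mt-Rnr2), against 16.9% of all genes. In none of the 29 did the 4 values of a region lie apart from the 4 of the other region, against 11.8% of all genes. The log2 fold change was above 0 in 23 of the 29, with a median of 0.23 over members and of 0.00 over all genes tested. The median was 0.35 over 13 mRNAs, 0.70 over 2 rRNAs and 0.13 over 14 tRNAs.

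The smallest adjusted p among members belonged to mt-Nd4, with a log2 fold change of 0.45 (SE 0.16, adjusted p = 0.117); its level averaged 12053 ± 1970 in hippocampus and 8883 ± 1882 in PFC (SD, n = 4 each). Without hippocampus replicate 1 its adjusted p was 0.0453, and over all alternatives it was 0.0453 to 0.362. For mt-Rnr2 the log2 fold change was 0.55 (SE 0.22, adjusted p = 0.191), with means of 80524 ± 26686 in hippocampus and 54973 ± 15641 in PFC. Without hippocampus replicate 2 its adjusted p was 0.0445, and over all alternatives it was 0.0445 to 0.536. For mt-Rnr1 the log2 fold change was 0.85 (SE 0.35, adjusted p = 0.206). It passed under no alternative (adjusted p of 0.0799 to 0.521).

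The other well counted mRNAs lay further from the threshold. Their log2 fold changes were 0.42 for mt-Nd5 (SE 0.25), 0.42 for mt-Nd2 (SE 0.30), 0.39 for mt-Nd6 (SE 0.32), 0.26 for mt-Cytb (SE 0.15) and 0.23 for mt-Nd1 (SE 0.15), with adjusted p of 0.406 to 0.632. Without hippocampus replicate 2 the values were 0.16 for mt-Nd5, 0.11 for mt-Nd2 and 0.01 for mt-Nd6, and without PFC replicate 4 they were 0.18, 0.12 and 0.11. Leaving out PFC replicate 4 also gave 0.13 for mt-Cytb and 0.08 for mt-Nd1. For mt-Co1 it was −0.15 (SE 0.18, adjusted p = 0.782), and 0.07 without hippocampus replicate 2. The 6 mRNAs with few reads had log2 fold changes of −0.23 to 0.53 and adjusted p of 0.493 to 0.944. The 14 tested tRNAs had log2 fold changes of −0.65 to 1.27 with SEs of 0.54 to 0.95 and adjusted p of 0.509 to 0.997. Differences within these errors were not detectable in these libraries. For the 5 tRNAs with the most reads the log2 fold change without hippocampus replicate 2 was −0.33 for mt-Tp, −0.34 for mt-Tm, −0.59 for mt-Tl1, −1.08 for mt-Tl2 and −1.13 for mt-Tq, against 0.31, 0.31, 0.14, −0.01 and −0.17 with it. The sign of 10 of the members turned when that library was left out, and the median of the members was then −0.02. Without PFC replicate 4 the sign of 9 members turned and the median was −0.09.

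**Figure D5:**
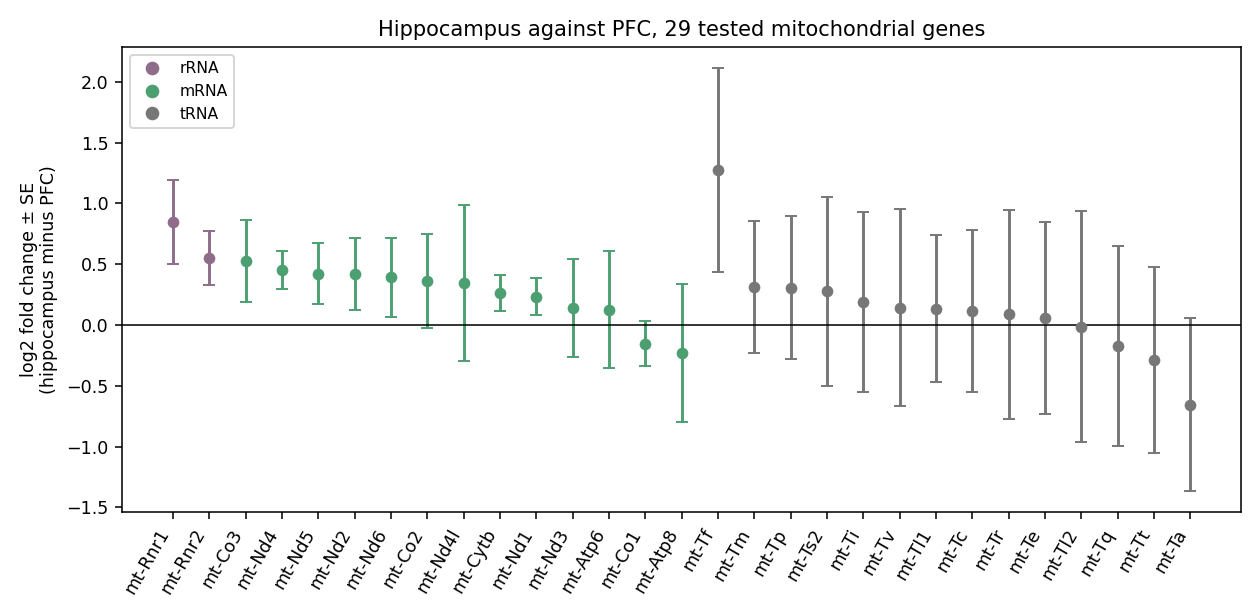
Log2 fold change (hippocampus minus PFC) with its standard error from limma for the 29 tested members, rRNAs (purple), mRNAs (green) and tRNAs (grey), each class ordered by its value. The estimate is above 0 in 23 of the 29, and none passed an adjusted p of 0.05.

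The libraries named above also differed elsewhere. Hippocampus replicate 3, highest for both rRNAs, had the highest level of the short nuclear gene Mir5102, with 12187 normalized counts against 1490 to 3807 in the other 7 libraries. It was also highest for Lars2, which encodes the enzyme that charges mitochondrial leucine tRNA, with 90976 against 23513 to 57445. In hippocampus replicate 3 Lars2 held 90976 of the 94174 normalized counts of 32 nuclear genes of mitochondrial RNA modification and tRNA charging. Whether all the reads counted for Lars2 came from its mRNA was not tested. PFC replicate 4, lowest for both rRNAs and for 7 of the 13 mRNAs, had the highest summed level of 8 striatal neuron markers, with 5153 against 2642 to 3639 in the other PFC libraries and 1332 to 1585 in hippocampus. It was at an end of the range in the other marker lists too. Its sums were the highest for cortical neurons (4638) and vessels (808). They were the lowest for dentate granule neurons (1237), CA pyramidal neurons (1990), choroid plexus (569), oligodendrocytes (56718), astrocytes (59273) and blood (896). The part of these in the levels of the members was not tested, and Mir5102, Mir5105 and Lars2 were singled out after their values were seen. The tissue labels were set beside the marker lists, which were chosen with earlier results of these data known. The hippocampus libraries were higher in 5 of 6 dentate granule and 5 of 6 CA pyramidal neuron markers. Of 8 cortical neuron markers 6 were lower in hippocampus and 1 was higher. Markers of choroid plexus (8 of 10) and oligodendrocytes (8 of 8) were also higher in hippocampus. Of 7 astrocyte markers 1 was higher and 6 did not pass. Of the striatal markers 8 of 8 were lower, and 0 of 6 blood and 0 of 6 vessel markers passed.

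The nuclear genes that make, cut and modify mitochondrial RNA were set beside the members. Of 70 genes in 3 lists (transcription and DNA maintenance, RNA processing and stability, and RNA modification and tRNA charging), 69 were tested; 0 were higher and 1 was lower in hippocampus, against 2.55% and 3.13% of all genes tested. Their median log2 fold change was −0.04. The gene that passed was Mrm1, a methyltransferase of the large mitochondrial rRNA, which had 101, 51.0, 85.1 and 99.3 normalized counts in hippocampus, against 148, 168, 119 and 249 in PFC. All 4 hippocampus values lay below all 4 PFC values, and its log2 fold change was −1.01 (SE 0.24, adjusted p = 0.0194). The adjusted p was 0.050001 without hippocampus replicate 3, 0.0558 without PFC replicate 2 and 0.103 without PFC replicate 4, and over all alternatives it was 0.00153 to 0.103.

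None of the other central genes passed the test. The mitochondrial RNA polymerase Polrmt averaged 106 ± 27.1 normalized counts in hippocampus and 122 ± 31.9 in PFC, and the DNA packaging and transcription factor Tfam averaged 197 ± 13.02 and 188 ± 22.5. Lrpprc, which stabilises mitochondrial mRNAs, averaged 801 ± 24.6 in hippocampus and 827 ± 51.9 in PFC. Elac2, which cuts the 3′ ends of tRNAs, averaged 198 ± 30.02 and 209 ± 37.0, and Trmt10c (listed as Rg9mtd1), a subunit of the enzyme that cuts their 5′ ends, averaged 156 ± 20.2 and 129 ± 14.4. Pnpt1, which takes part in mitochondrial RNA decay, averaged 152 ± 31.5 in hippocampus and 135 ± 26.2 in PFC (SD, n = 4 each). Their log2 fold changes were −0.19 to 0.27 and their adjusted p were 0.426 to 0.899.

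Gene names that lie within the nuclear copies had far fewer reads than the well counted members. On the chromosome 1 copy, Gm10925 had 12.5, 26.0, 24.7 and 78.5 normalized counts in hippocampus, against 19.98, 15.1, 14.3 and 22.2 in PFC. Gm10222 on the same copy had 0.962 to 2.63 in hippocampus, against 1.26 to 3.07 in 3 PFC libraries and 52.5 in PFC replicate 4. A second copy at chr2:22442808-22446054, 97.4% identical to chrM:4441-7699, holds Gm13340, with 167, 100.1, 156 and 189 in hippocampus, against 206, 232, 150.4 and 153 in PFC. Its neighbours Gm13339 and Gm13341 had 0.525 to 5.77 and 8.22 to 37.5 in hippocampus, and 1.26 to 4.61 and 10.8 to 44.6 in PFC. Since reads of near-identical copies can be placed at either, the levels of these names and of the members they match are uncertain.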

How the data were processed

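The study aligned quality-trimmed reads to NCBIM37 with TopHat2 2.0.9, which allowed 2 mismatches, and HTSeq 0.6.0 assigned them to gene names irrespective of strand. The deposited values are these counts divided by DESeq size factors by the authors, a normalized signal that is neither raw counts nor per length. Whole reads were recovered for 100% of values (within 1e-06). The submitters' notes also name Cufflinks 2.1.1.

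limma 3.58.1 (R 4.3.3) tested log2(value + 1) with a variance trend in the 19789 genes averaging 1 normalized count or more, so fold changes of low genes are understated. Alternatives were edgeR 4.0.16 and DESeq2 1.42.0 on recovered reads, pseudocounts of 0.5 and 5, no filter, a mean of at least 10, quantile normalization, scaling without mitochondrial genes, array weights, a replicate block and leaving out each library. The test was checked on simulated counts. Nuclear copies were searched with blastn 2.17.0. The p-values measure the spread between libraries of a region, which holds differences between pools of mice and in library preparation. The main test treated all libraries as independent, although the regions may share mice.

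The members and gene lists were chosen with earlier results of these data known. Every mt- name is named or counted; of the nuclear lists, Polrmt, Tfam, Lrpprc, Slirp, Elac2, Trmt10c and Pnpt1 were always named, with up to 4 members past the threshold per list. Slirp was not matched.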

Additional observations from a re-analysis of the deposited data

Results flagged for a closer look

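In 102 groups of 4 libraries of a region, a library was singled out in 19. There its gap to the nearest other library exceeded the critical share of the group's range in Dixon's test for 4 values. Chance does so in about 1 group in 20 when values are independent and normal. Some groups hold few reads or share tRNA reads with other groups, so the 19 cannot be set against that rate. Hippocampus replicate 2 accounted for 13 of the 19. It had 14.4 normalized counts of mt-Tv, 86.6 of mt-Tl1, 26.0 of mt-Ti, 64.5 of mt-Tq, 138 of mt-Tm, 11.5 of mt-Ts2, 65.4 of mt-Tl2 and 5.77 of mt-Te, while the other hippocampus libraries had at most 1.30, 13.1, 2.31, 4.73, 30.5, 1.05, 4.62 and 0.525 of the same tRNAs. Its tRNA share of 0.00907% and its 5.36 tRNA reads per 1000 mRNA reads stood apart with them. It also stood apart for mt-Nd6 (2516, against 703 to 989 in the other hippocampus libraries), Polrmt (146, against 88.3 to 96.6) and Pnpt1 (105, against 167 to 169).

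Hippocampus replicate 1 was low for mt-Nd1, with 20258 against 26534 to 27288 in the other hippocampus libraries. Hippocampus replicate 3 was low for Lrpprc, with 765 against 809 to 817, and was the only hippocampus library with a read of mt-Tn (1.05 normalized counts, 2 reads). PFC replicate 4 was low for the mitochondrial mRNA share, with 1.12% against 1.60 to 1.68% in the other PFC libraries, and high for Gm10222, with 52.5 against 1.26 to 3.07. PFC replicate 2 had 0 normalized counts of mt-Nd4l, against 1.34 to 1.54, a difference of a single read or so.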

How the results depend on the processing

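No alternative with all 8 libraries called a mitochondrially encoded gene. Leaving out a library in turn gave 0 to 1 such genes (mt-Nd4 without hippocampus replicate 1, mt-Rnr2 without hippocampus replicate 2). Of 252 fold changes of 14 named members under alternatives, 225 kept their sign and side of the threshold, 25 turned sign and 2 passed it. Over all genes 1124 were called, against 2441 with array weights, 729 with a replicate block and 575 to 2224 without a library. Same-numbered libraries did not deviate together (correlations of −0.13, −0.09, 0.03 and 0.02 over all genes tested). The largest correlation of a hippocampus with a PFC library was 0.21, between hippocampus replicate 2 and PFC replicate 1. The next was 0.10, between hippocampus replicate 1 and PFC replicate 4. These values cannot show whether libraries share mice, since variation between libraries could hide it. The numbers were used as names of libraries and not as pairs. The replicate block called 0 mitochondrially encoded genes. Of the nuclear list genes 1 was called, against 3 with array weights (Mrm1, Fastk and Fastkd3) and 0 to 2 without a library. Array weights gave log2 fold changes of −0.00012 for mt-Nd6, −0.34 for mt-Tp, −0.087 for mt-Tm and −0.38 for mt-Tl1, and turned the sign of 14 of 29 members. For mt-Tl2 edgeR gave 0.84, DESeq2 0.72 and a pseudocount of 5 gave 0.057; for mt-Tq edgeR gave 0.73 and DESeq2 0.62. Without a library the range was −0.31 to 0.067 for mt-Co1, −0.33 to 0.72 for mt-Tp, −0.34 to 0.72 for mt-Tm, −0.59 to 0.52 for mt-Tl1, −1.08 to 0.72 for mt-Tl2 and −1.13 to 0.31 for mt-Tq. The causes of these changes were not tested. With Malat1 and mt-Rnr2 left out of the reads the rRNA share was 0.0505% in hippocampus and 0.0248% in PFC, since mt-Rnr2 holds most of it. The median level of the 7 mRNAs was 9996 per kb in hippocampus and 6956 in PFC, against 15090.2 and 12262 per 1000 unique start positions, which are fewer than the bases. Per kb the hippocampus value was 8422 without replicate 2 and 11095 without replicate 1. The PFC value was 7790 without replicate 4 and 6119 without replicate 1. The tRNAs had few reads, 36 to 684 a library, and these did not follow the depth of the library. Hippocampus replicate 1 had 155 of 16636500 reads in genes, PFC replicate 4 had 61 of 10625194 and hippocampus replicate 2 had 684 of 7544019.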

Other observations

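Members on the minus strand, whose precursor is read from the other strand of the genome, were compared with neighbours on the plus strand. There were 8.87, 12.7, 8.76 and 9.73 counts of mt-Nd6 per 100 of its neighbour mt-Nd5 in hippocampus, against 11.8, 9.98, 9.35 and 9.50 in PFC. The minus-strand tRNAs summed to 27.3, 278, 54.6 and 41.6 normalized counts in hippocampus, against 108, 75.3, 80.2 and 14.1 in PFC, and the plus-strand tRNAs to 39.8, 380, 50.4 and 41.6, against 166, 51.5, 64.5 and 26.9. Both kinds were highest in hippocampus replicate 2 and second highest in PFC replicate 1, and the counting did not separate strands.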
